A study of Homo sapiens with 9 samples.

Results

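Replication-type histone genes code for the histones that are deposited on new DNA during S phase: the core histones H2A, H2B, H3 and H4, and the linker histones H1. The members described here are the 45 coding genes with a current symbol of H1-, H2AC, H2BC, H3C or H4C and a number whose raw counts, summed over all 9 libraries, reached 30. They were found among 74 coding genes of that naming family and 36601 genes in all. The choice used the summed count, so the presence of a member is not a result. The member just inside the limit was H3C12 with 38 counts, and the gene just outside it was H2AC12 with 28. The 29 family genes left out held 163 counts together, and 8 of them had none.

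RNA was taken from LX2, an immortalised line derived from hepatic stellate cells of human liver, which make scar collagen in fibrosis. All 9 cultures grew in DMEM with fetal bovine serum and antibiotics and received 20 nM siRNA by lipofection for 7 days. The groups were siNT (non-targeting siRNA), siYAP (siRNA against YAP, gene YAP1) and siTAZ (siRNA against TAZ, gene WWTR1), with 3 libraries each; no genotype or further agent sets the groups apart. YAP and TAZ are related transcriptional co-activators held back by the Hippo pathway. The design text calls the 3 libraries of a group biological replicates without saying whether they came from separate experiments, so the p-values measure the spread between these libraries. The line stands in for stellate cells in culture only, and the labels give no siRNA sequences.

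Gene totals ran from 16498508 to 18752805 counts per library. Values are CPM, counts divided by the TMM-scaled size of their library in the usual unit, and 3 counts correspond to 0.157 to 0.177 CPM depending on the library, a limit that covers counting error only. YAP1 averaged 209 CPM in siNT, 26.3 in siYAP and 170.0 in siTAZ. WWTR1 averaged 62.0, 75.8 and 9.53 CPM in the same order, so each targeted transcript was lowest in its own group. The stellate markers COL1A1 and SPARC were abundant, whereas DES averaged 0.130 to 0.269 CPM per group. The 10 stellate markers summed to between 9674 and 9778 CPM in siNT, 5097 and 5171 in siYAP, and 14170 and 14216 in siTAZ. Most of each sum came from COL1A1 and SPARC, and the single markers did not move together. Of 9 tested, 3 were called higher (COL1A2, ACTA2 and TIMP1) and 6 lower after siYAP, against 33.8% and 33.4% of all genes. After siTAZ 5 were called higher and 3 lower (VIM, TIMP1 and THY1), against 16.4% and 18.2%. Of the 6 hepatocyte markers, ALB, TTR and FGB were at or near 0 in every group; the list's sum of 12.8 to 16.02 CPM in siYAP, against 1.78 to 2.004 in siNT, came from SERPINA1.

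Markers of other cell types were low but not all at 0. The 5 leukocyte markers summed to between 12.03 and 13.6 CPM in siNT, 9.50 and 11.3 in siYAP, and 8.90 and 11.2 in siTAZ, most of it from CD14, a monocyte receptor, which was not called; PTPRC (CD45) was called lower after both siRNAs, and CD3E was at or near 0. The 4 endothelial markers summed to between 11.6 and 15.2 CPM in siNT, 12.3 and 15.7 in siYAP, and 7.74 and 8.68 in siTAZ. All 4 were called after siYAP: PECAM1, at a mean of 0.519 CPM in siNT and 6.39 in siYAP, and KDR were higher, whereas CDH5, at 5.21 and 0.364 CPM, and TEK were lower. The 4 cholangiocyte markers summed to between 50.04 and 52.6 CPM in siNT and 79.9 and 83.1 in siYAP, nearly all from SOX9, with KRT19 and EPCAM near 0. The part of these genes in the histone levels was not tested.

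Replication-type histone transcripts differ from other mRNAs at their 3′ end. In place of a poly(A) tail they end in a conserved stem-loop, which is bound by SLBP, the stem-loop binding protein, and cleaved a few bases downstream with the help of the U7 snRNP. Many of these genes can also give longer transcripts that read past the stem-loop and carry a poly(A) tail, and such forms are known from differentiating and non-dividing cells. The linker H1-10 is a replacement histone that lacks the stem-loop, carries a poly(A) tail and is made outside S phase. The libraries here were made with an mRNA kit, so the levels are those of the transcripts the kit captured; the labels do not say how far it captured tail-less transcripts.

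The histone stem-loop was found downstream of the stop codon in the GENCODE 29 transcripts of 24 of the 45 members, against 36 of 19433 coding genes searched (0.185%), 31 of which belong to the histone family. It began 23 to 56 bases after the stop codon. The search used 1 pattern of 16 bases, so a variant element, or one cut off by the model's end, would be missed. H1-4 and H4C3, whose models hold 57 and 51 bases after the stop codon, gave no match, which does not show absence. The 24 elements took 6 forms, the most frequent of which was shared by 13 members. The examples below show every form and the members on which the results turn, as DNA letters read 5′ to 3′ on the transcribed strand of GRCh38, with the stem-loop in capitals:
H2AC6, chr6:26124664-26124689, plus strand: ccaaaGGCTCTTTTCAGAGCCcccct
H2BC21, chr1:149886183-149886208, minus strand: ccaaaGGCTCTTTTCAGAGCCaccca
H2BC5, chr6:26158582-26158607, plus strand: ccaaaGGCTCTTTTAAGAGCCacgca
H4C8, chr6:26285126-26285151, minus strand: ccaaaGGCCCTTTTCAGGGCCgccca
H4C9, chr6:27139649-27139674, plus strand: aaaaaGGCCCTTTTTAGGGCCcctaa
H2AC11, chr6:27133510-27133535, plus strand: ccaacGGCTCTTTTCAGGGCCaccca
H3C6, chr6:26225591-26225616, plus strand: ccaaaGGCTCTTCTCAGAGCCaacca
All 7 of these elements lie in the 3′ UTR. In 20 members an annotated transcript ran at least 100 bases past the stem-loop, up to 1917 bases in H2BC26, 1862 in H3C6 and 1729 in H2BC21. In 15 of the 20 the 3′ UTR of at least 1 annotated transcript contained the poly(A) signal AATAAA. In H2BC4 and H2BC15, counted among the 15, the signal lay only in a transcript without the stem-loop. In 16 members the coding model stops at the stop codon, among them H2BC12, H1-2 and H2AC20, so a stem-loop could not be looked for. Their length is coding length, except in H3C12, where another annotated transcript makes it 775 bases against 411 in the coding one.

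After siYAP the transcripts of most tested core histone genes rose, while the linkers H1-10 and H1-2 fell. The summed core histone level was 204, 191 and 193 CPM in the siNT libraries and 474, 470 and 486 CPM in the siYAP libraries, a ratio of the means of 2.43. Every siYAP library lay above every siNT library. The share of reads in no gene was also highest in siYAP, at 6.01% to 7.49% against 4.73% to 5.13% in siNT and 5.53% to 5.63% in siTAZ, without overlap, and its part in the histone levels was not tested. The summed level of H1-2, H1-3, H1-4 and H1-5 went the other way, from 41.5, 30.6 and 32.3 CPM in siNT to 24.2, 21.1 and 23.3 CPM in siYAP, a ratio of 0.657. These are bulk cultures, in which a change in the number of cells making a transcript and a change in the RNA per cell cannot be told apart.

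**Figure D1:**
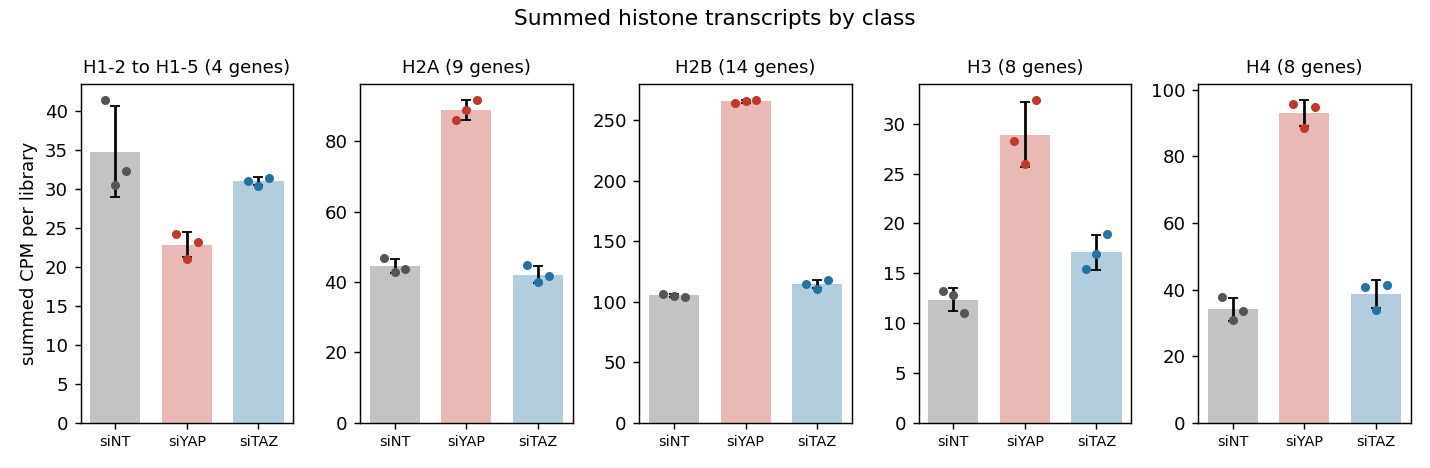
Summed CPM of 4 linker genes and of the members of each core histone class in each library (points, 3 per group), with the group mean as a bar from 0 and its SD as an error bar. H2A, H2B, H3 and H4 sums are higher in all 3 siYAP libraries than in any siNT or siTAZ library, and the sum of the 4 linkers is lower.

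Of the 45 members, 36 passed the filter on low counts and were tested. With edgeR's quasi-likelihood test, 21 were higher in siYAP than in siNT, 4 were lower and 11 were not called at an adjusted p under 0.05. Of all 15560 genes tested, 33.8% were called higher and 33.4% lower. The median log2 fold change was 0.85 over the tested members and 0.02 over all genes tested. For 3 tested members fewer than 3 libraries outside siYAP reached the filter's level: H2BC26, H2BC7 and H1-3. H2BC7 reached it in all 3 siYAP libraries, in none of siNT and in 1 of siTAZ. It was thus tested because of the group in which it is high, and its call is given as a value only. The other 2 were not called. H2AC20 reached the level in 2 siNT and 2 siTAZ libraries and in 0 of siYAP. It was tested because of the groups in which it is high, so its calls are also given as values only. Over all 45 members, the siYAP and siNT libraries did not overlap in 23 members that were higher and 6 that were lower, against 34.1% and 31.8% of the 17468 genes with a summed count of at least 30. The 9 members not tested had sums of 38 to 51 counts and stayed at or below 1.12 CPM in every library: H4C4, H3C13, H4C3, H2BC13, H1-5, H2AC16, H2AC14, H4C12 and H3C12.

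**Figure D2:**
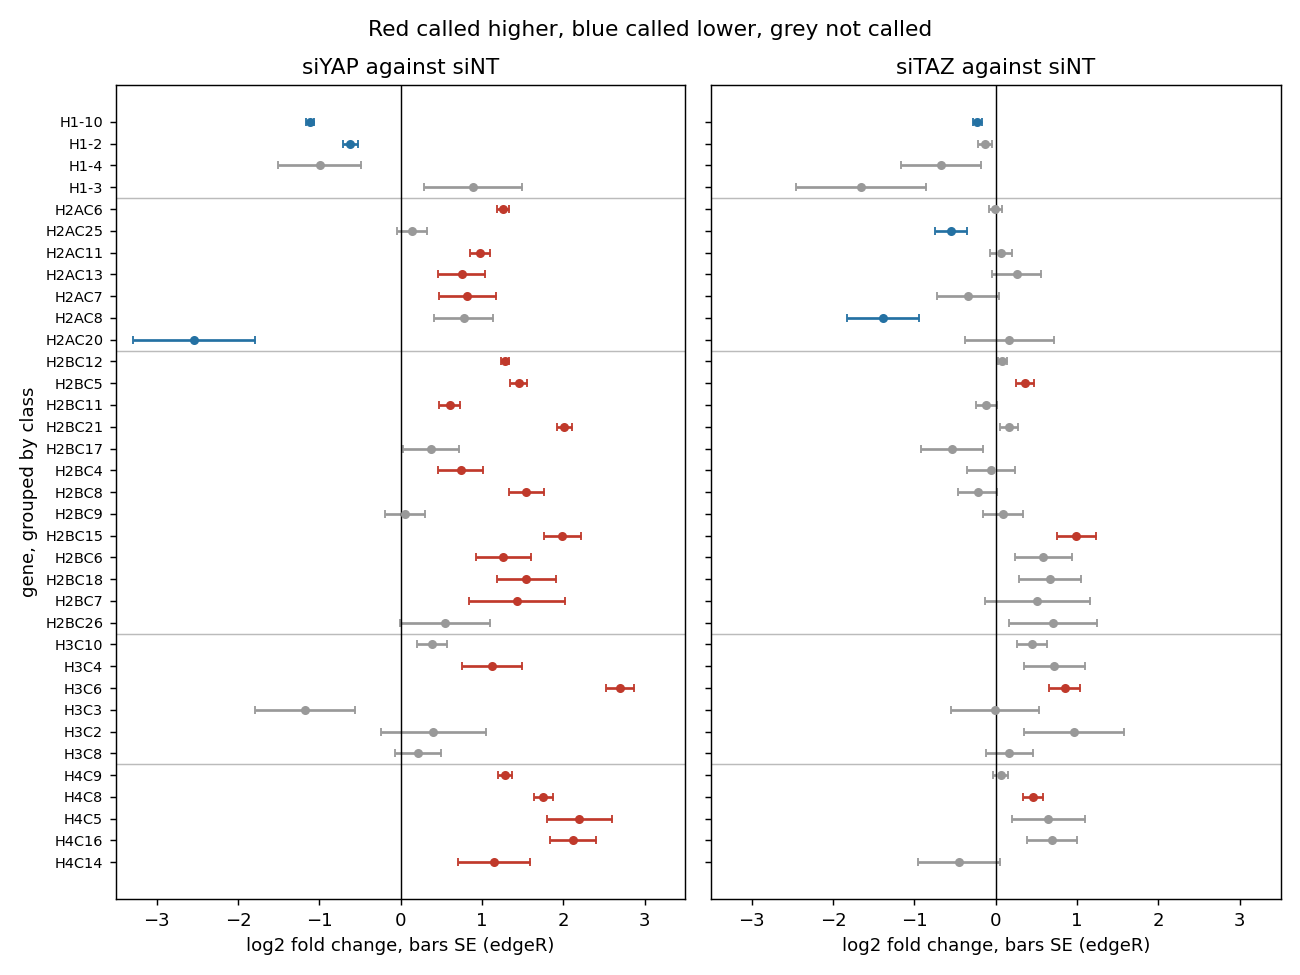
Log2 fold change with its SE (edgeR) for 35 tested members, grouped by class, for siYAP against siNT (left) and siTAZ against siNT (right); red is called higher, blue called lower, grey not called. On the left 21 members are red, and H1-10, H1-2 and H2AC20 are blue.

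Linker histones bind the DNA between nucleosomes. H1-10 (chromosome 3, 129314771 to 129316277, GRCh38, 1 exon) was at 110.0, 110.1 and 107 CPM in siNT and at 48.2, 50.9 and 52.3 CPM in siYAP. The groups lay far apart, and H1-10 fell by 1.11 on the log2 scale (SE 0.05, adjusted p = 3.13e-28). The exons of H1-10 overlap those of an antisense gene, H1-10-AS1, over 345 bases. The strand used in counting is unknown, and H1-10-AS1 was listed at only 3.33 CPM in siNT and 3.01 in siYAP.

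H1-2 (chromosome 6, 26055787 to 26056428), the main S-phase linker in these cells by count, was at 39.6, 29.1 and 29.9 CPM in siNT and at 22.2, 20.2 and 21.7 CPM in siYAP. It fell by 0.62 on the log2 scale (SE 0.09, adjusted p = 2.17e-08), with no overlap between the groups. H1-4 had a log2 fold change of -0.99 (adjusted p = 0.0789) and H1-3 one of 0.89 (adjusted p = 0.183), and neither was called. H1-2, H1-3, H1-4 and H1-5 together averaged 34.8 ± 5.86 CPM (SD, n = 3) in siNT and 22.9 ± 1.60 CPM in siYAP.

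H2A and H2B form the dimers on either side of the nucleosome core. Of the 9 H2A members 7 were tested, and 4 rose and 1 fell after siYAP. Among the 14 H2B members 13 were tested, of which 10, H2BC7 included, were called higher and none fell. Of all genes 33.8% were called higher and 33.4% lower. Summed H2B was 107, 105 and 104 CPM in siNT and 264, 266 and 267 CPM in siYAP, the narrowest spread of the 5 classes in siYAP. H2BC12 (chromosome 6, 27146418 to 27146798), which held 28.7% of the core histone counts, was at 60.5, 52.7 and 56.2 CPM in siNT and at 138, 135 and 139 CPM in siYAP. It rose by 1.28 on the log2 scale (SE 0.05, adjusted p = 2.02e-31). Since 74.1% of its 50-base windows also occur in other counted genes, its count is uncertain. Reads from the shared stretches may be missing or counted for another copy. The core histone ratio without H2BC12 was 2.43 as well.

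The largest rise among the H2B genes was that of H2BC21 (chromosome 1, 149884459 to 149886652), with 11.8, 14.3 and 10.8 CPM in siNT and 49.3, 49.96 and 50.3 CPM in siYAP. Its log2 fold change was 2.01 (SE 0.10, adjusted p = 1.66e-28), and 7.23% of its windows were shared. H2BC5 was at 11.3, 11.6 and 10.6 CPM in siNT and at 31.2, 32.4 and 28.2 CPM in siYAP, a log2 fold change of 1.45. H2BC15 went from 1.89, 1.90 and 1.59 CPM to 5.96, 7.26 and 8.16 CPM, a log2 fold change of 1.99 (SE 0.22, adjusted p = 7.26e-12); its annotated exons overlap those of 2 H2A genes. In each of these 3 genes the lowest siYAP library was more than 2 times the highest siNT library. Not every H2B gene moved: H2BC9 had 3.24 ± 0.896 CPM (SD, n = 3) in siNT and 3.37 ± 0.923 CPM in siYAP.

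H2AC6 (chromosome 6, 26124145 to 26139116) was the leading H2A gene. It was at 22.6, 22.5 and 23.8 CPM in siNT and at 54.5, 55.6 and 54.6 CPM in siYAP, and rose by 1.26 on the log2 scale (SE 0.08, adjusted p = 3.27e-23). H2AC25, on the second histone cluster of chromosome 1, was at 7.01, 4.55 and 5.94 CPM in siNT and at 6.76, 6.06 and 6.44 CPM in siYAP, so the groups overlapped. H2AC20 (chromosome 1, 149886975 to 149887364) was the only core histone gene called lower. That call is a value only, since H2AC20 passed the filter through its siNT and siTAZ libraries. It had 9, 10 and 16 counts in siNT and 4, 0 and 2 counts in siYAP, a log2 fold change of -2.54 (SE 0.75, adjusted p = 0.00221). The mean of siYAP, 0.110 CPM, is below the level of 3 counts in a library, so the size of this fall is poorly determined.

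H3 and H4 form the central tetramer of the nucleosome. Of 8 H3 members 6 were tested, and 2 rose after siYAP, about the share of all genes called higher (33.8%). H3C6 (chromosome 6, 26224199 to 26227473) had the largest rise of any member. It was at 2.77, 2.53 and 2.26 CPM in siNT and at 16.8, 15.2 and 17.3 CPM in siYAP, a log2 fold change of 2.70 (SE 0.17, adjusted p = 2.14e-22). H3C4, at 1.24, 0.748 and 1.08 CPM in siNT and 1.86, 1.57 and 3.31 CPM in siYAP, was called higher (log2 fold change 1.12, adjusted p = 0.00544). That call rests on the third siYAP library, without which the log2 fold change was 0.74 and the adjusted p 0.115. H3C10, the H3 gene with the most signal per kilobase over all libraries, was at 5.25, 4.89 and 4.13 CPM in siNT and 5.43, 5.90 and 7.33 CPM in siYAP; it was not called (adjusted p = 0.0591), although the groups did not overlap.

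All 5 tested H4 genes rose after siYAP, against 33.8% of all genes, with log2 fold changes from 1.15 to 2.20. These H4 genes code for the same protein. H4C9 (chromosome 6, 27138588 to 27139881) was at 24.5, 20.3 and 21.5 CPM in siNT and at 54.4, 53.0 and 54.2 CPM in siYAP, a log2 fold change of 1.29 (SE 0.08). H4C8 was at 9.49, 7.54 and 8.15 CPM in siNT and at 30.6, 26.7 and 27.6 CPM in siYAP, a log2 fold change of 1.76 (SE 0.11). The weakly expressed H4C16, on chromosome 12 away from the histone clusters, went from 1.12, 1.38 and 0.962 CPM to 5.64, 3.602 and 5.85 CPM (log2 fold change 2.11, SE 0.28). H4C5 had 6, 8 and 23 counts in siNT and 58, 45 and 75 counts in siYAP (log2 fold change 2.20, SE 0.40). H4C14 shares 97.5% of its windows with another counted gene, and its call was lost without the second siNT library (adjusted p = 0.0942) and without the third siYAP library (adjusted p = 0.0745).

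**Figure D3:**
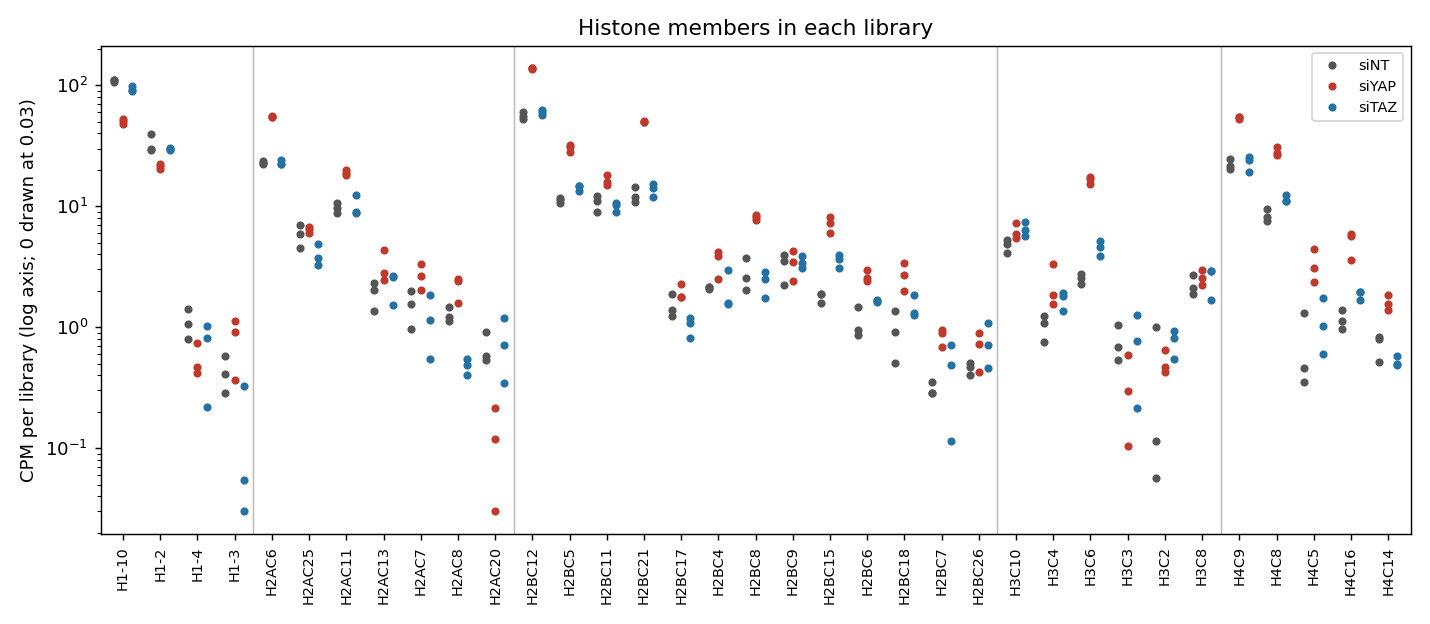
CPM of 35 tested members in each of the 9 libraries on a log axis; a value of 0 is drawn at the lower edge. The siYAP points of H2BC21, H3C6, H4C8 and H4C16 lie apart from the siNT and siTAZ points.

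By position, 21 members lie in the first cluster of chromosome 6 (26031650 to 26285638). There 11 of 19 tested members, H2BC7 included, rose and 1 fell after siYAP. Beside each count by position or transcript model stand 33.8% of all genes called higher and 33.4% called lower. In the second cluster of chromosome 6 (27125897 to 27893843), 6 of 8 tested members rose and none fell. In the first cluster of chromosome 1 (149782689 to 149887364), 3 of 4 rose and 1, H2AC20, fell. In the second cluster of chromosome 1 (228456979 to 228460470) neither of the 2 tested members was called. By transcript model, 15 of the 20 core genes with an annotated transcript at least 100 bases past the stem-loop rose and none fell. H2BC7, whose call is a value only, is among the 15, and the median log2 fold change of the 20 was 1.27. Of 13 core genes whose model ends at the stop codon 7 were tested, of which 3 rose and 1, H2AC20, fell, with a median of 0.40. These groups also differ in level and in annotated length, and the difference between them was not tested. The summed CPM had a siYAP to siNT ratio of 2.61 in the first and 2.29 in the second, but H2BC12 carries the second: its other 12 genes averaged 7.75 ± 1.23 CPM (SD, n = 3) in siNT and 9.54 ± 1.40 CPM in siYAP, a ratio of 1.23, with libraries that overlapped.

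Histone promoters are compact. H2A and H2B genes are often arranged head to head around a shared promoter that holds the octamer, the binding sequence of the factor OCT-1 (gene POU2F1). The RefSeq promoter table (GRCh38.p14, 250 bases before to 50 bases after the start) held 42 of the 45 members and 27305 genes in all. Searched on both strands, the octamer ATTTGCAT was found in 18 of the 42 (42.9%), against 1.80% of all promoters. It was present in 10 of 14 H2B, 7 of 9 H2A and 1 of 7 H3 promoters and in no H1 or H4 promoter. The H3 match, in a RefSeq window of H3C4, is the same element as in the H2AC7 and H2BC7 windows, since that RefSeq start lies beside H2AC7 and away from the GENCODE 29 model of H3C4 (26196840 to 26197250). The TATA box TATAAA was found in 59.5% of member promoters against 11.95% of all. The CCAAT box was found in 83.3% against 35.7%, in all H2A, H2B and H3 promoters with an entry, but in only 1 of 7 H4 promoters.

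In 5 pairs of an H2B and an H2A member the same octamer lies in both promoter windows. Each is shown because the pair shares it while the members' responses can be set side by side, read 5′ to 3′ on the strand of the H2B gene with the octamer in capitals:
H2BC21 and H2AC20, chr1:149886712-149886737, minus strand: ggagccctaATTTGCATaaggtggtt
H2BC8 and H2AC8, chr6:26216720-26216745, minus strand: gaattctttATTTGCATgaaaggcct
H2BC4 and H2AC6, chr6:26124033-26124058, minus strand: tcatacctcATTTGCATagctctgcc
H2BC11 and H2AC11, chr6:27132826-27132851, minus strand: cttcaccttATTTGCATaagcgattc
H2BC7 and H2AC7, chr6:26199396-26199421, plus strand: aatcacctaATTTGCATaccacaggg
After siYAP both members rose in 2 of the pairs: H2BC4 (log2 fold change 0.74) with H2AC6 (1.26), and H2BC11 (0.60) with H2AC11 (0.98). H2AC7 had a log2 fold change of 0.82 and H2BC7, which passed the filter through its siYAP libraries, one of 1.43. H2BC8 rose by 1.55, while its partner H2AC8 had a log2 fold change of 0.77 and was not called (adjusted p = 0.0573). H2BC21 and H2AC20 went in opposite directions, at 2.01 and -2.54, and H2AC20 passed the filter through its siNT and siTAZ libraries. The calls of H2BC4, H2BC7 and H2AC7 were lost on leaving out single libraries, with adjusted p up to 0.103, 0.0870 and 0.191. H2BC7 was also lost without a filter on low counts, and H2AC7 with DESeq2. Of the H2B members, 8 of 10 tested with the octamer were called higher, H2BC7 among them, with a median log2 fold change of 1.27. Without the octamer 2 of 3 tested rose, with a median of 1.45. Among all genes 33.8% were called higher, and a match is a description of these letters only.

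After siTAZ the histone transcripts moved far less. The summed core level was 216, 202 and 220.0 CPM against 204, 191 and 193 CPM in siNT, a ratio of 1.08, and the groups overlapped. Of the 36 tested members 4 were higher, 4 lower and 28 not called, against 16.4% of all genes called higher and 18.2% called lower. The median log2 fold change was 0.08 over the tested members and 0.01 over all genes. For the 6 tested H3 genes it was 0.58 after siTAZ and 0.39 after siYAP. Of these 6, 1 was called higher after siTAZ and 2 after siYAP. Summed H3 averaged 12.4 CPM in siNT and 17.1 CPM in siTAZ, and these libraries did not overlap. The ratio of these means was 1.38, against 2.34 for siYAP over siNT. In the direct comparison 1 of the 6 was called lower in siTAZ than in siYAP. H2BC15 rose most, to 3.95, 3.66 and 3.06 CPM (log2 fold change 0.99, SE 0.24, adjusted p = 0.000669). H3C6 rose to 4.60, 3.88 and 5.13 CPM (0.84, SE 0.19, adjusted p = 0.000311). H4C8, at 12.5, 11.03 and 10.96 CPM, had a log2 fold change of 0.46 (adjusted p = 0.00232), and H2BC5, at 14.8, 13.4 and 14.7 CPM, one of 0.35 (adjusted p = 0.00814). For these 4 genes no siTAZ library overlapped a siNT library. Over all 45 members the siTAZ and siNT libraries did not overlap in 8 that were higher, against 20.1% of the 17468 genes with a summed count of at least 30, and in 5 that were lower, against 3677 of the 17468.

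Among the members that fell after siTAZ were H2AC8, H2AC25 and H1-10. H1-10 was at 89.8, 98.1 and 92.2 CPM and fell by 0.23 on the log2 scale (SE 0.05, adjusted p = 0.000218). H2AC8 had 0.487, 0.546 and 0.404 CPM after siTAZ and 1.12, 1.21 and 1.47 CPM in siNT, a log2 fold change of -1.39 (SE 0.44, adjusted p = 0.0103). It reached the filter's level in 3 siNT and 3 siYAP libraries and in 0 of siTAZ. H2AC8 was thus tested because of the groups in which it is high, and its call is given as a value only. H2AC25, at 3.25, 4.91 and 3.75 CPM, overlapped siNT and was called lower (-0.55, adjusted p = 0.0214). Its call was lost without siNT library 1 or siNT library 3 (adjusted p = 0.178 and 0.0567) and without siTAZ library 1 or siTAZ library 3 (adjusted p = 0.128 and 0.0634). H1-2 was at 29.4, 29.98 and 30.4 CPM after siTAZ and was not called (adjusted p = 0.255).

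The direct comparison of siTAZ with siYAP tests whether the knockdowns differ. It called 21 members lower and 4 higher in siTAZ, against 33.2% and 33.0% of all genes. In the comparison without overlap, 22 of the 45 members were lower and 4 higher in siTAZ, against 32.7% and 30.8% of the genes with a summed count of at least 30. Among the higher were H2AC20 (log2 difference 2.71, SE 0.73, adjusted p = 0.000951), H1-10 (0.89) and H1-2 (0.49, adjusted p = 4.97e-06). The value of H2AC20 carries the limit given above, that it passed the filter through its siNT and siTAZ libraries. The largest differences downwards were those of H1-3 (-2.55, adjusted p = 0.00162), H2AC8 (-2.16, adjusted p = 7.28e-06), H3C6 (-1.86, adjusted p = 6.47e-17) and H2BC21 (-1.85, adjusted p = 4.79e-27). H1-3 rests on few reads, with 17, 7 and 19 counts in siYAP and 6, 1 and 0 in siTAZ. It passed the filter through 2 siYAP libraries and 1 siNT library, so its difference is also a value only. The same holds for the difference of H2AC8, which passed through its siNT and siYAP libraries. The 5 tested H4 genes were all lower in siTAZ than in siYAP, by log2 differences from -1.61 to -1.23.

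Variant histones can take the place of the S-phase forms, and most are made outside S phase as well. Of 12 variant genes with an ID, 9 were tested. After siYAP 6 fell and 1 rose (median log2 fold change -0.45), against 33.4% and 33.8% of all genes. H2AZ2, a form of H2A.Z placed at promoters, was at 179, 177 and 181 CPM in siNT and at 62.6, 69.1 and 66.0 CPM in siYAP (-1.44, SE 0.05). CENPA, the H3 variant of centromeres, fell by 1.37, H2AX, the variant marked at DNA breaks, by 0.74, H2AZ1 by 0.59 and H3-3B by 0.45 on the log2 scale. H3-3A, which codes for the same protein as H3-3B, had a log2 fold change of 0.04 and was not called, and MACROH2A1 rose by 0.18. After siTAZ 2 variants rose and 2 fell, against 16.4% and 18.2% of all genes, with a median of -0.02. MACROH2A1 rose by 0.23 and H2AZ1 fell by 0.16.

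The factors that transcribe, process and degrade histone mRNA showed calls in both directions at about the rate of all genes. Of the 23 with an ID, all tested, 8 rose and 8 fell after siYAP (median log2 fold change 0.03), against 33.8% and 33.4% of all genes. SLBP was at 146, 145 and 148 CPM in siNT and at 163, 167 and 168 CPM in siYAP, a rise of 0.18 (SE 0.04, adjusted p = 8.92e-05). NPAT, the cyclin E/CDK2 target that activates histone genes, rose by 0.32 (SE 0.06) and POU2F1 by 0.65 (SE 0.09). LSM11, a protein of the U7 snRNP, rose by 0.65, and TUT7, which adds uridines to histone mRNA in its decay, by 0.91. HINFP, an activator of H4 genes, CASP8AP2 and LSM10 had log2 fold changes of 0.00, 0.03 and -0.06 and were not called. UPF1, a helicase needed for histone mRNA decay, was at 279, 265 and 276 CPM in siNT and at 169, 168 and 171 CPM in siYAP, a fall of 0.69 on the log2 scale. NCBP2, a subunit of the cap-binding complex, fell by 0.89 on the log2 scale.

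After siTAZ 2 of these 23 rose and 7 fell, against 16.4% and 18.2% of all genes, with a median of -0.06. LSM11 rose by 0.42 and POU2F1 by 0.25, and UPF1 fell by 0.41 and CSTF2, a cleavage stimulation factor, by 0.33. SLBP (log2 fold change -0.07), NPAT (0.02), HINFP (0.11), CASP8AP2 (-0.02) and LSM10 (-0.07) were not called after siTAZ. In the direct comparison SLBP was lower in siTAZ than in siYAP by a log2 difference of -0.26 (adjusted p = 1.55e-07), and TUT7 by -1.10 (adjusted p = 7.45e-23).

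The general cleavage and polyadenylation factors, which give mRNAs their tails, fell or were not called. Of 14 tested, 7 fell and none rose after siYAP (median log2 fold change -0.13), against 33.4% and 33.8% of all genes. After siTAZ 2 fell and none rose, against 18.2% and 16.4% of all genes, with a median of -0.02. CPSF6 and CPSF7, subunits of cleavage factor Im, fell by 0.54 and 0.33 on the log2 scale after siYAP. PAPOLA, the poly(A) polymerase, fell by 0.30 after siYAP and by 0.12 after siTAZ. The number of histone transcripts with a tail was not measured, and the part of these factors in the histone levels was not tested.

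**Figure D4:**
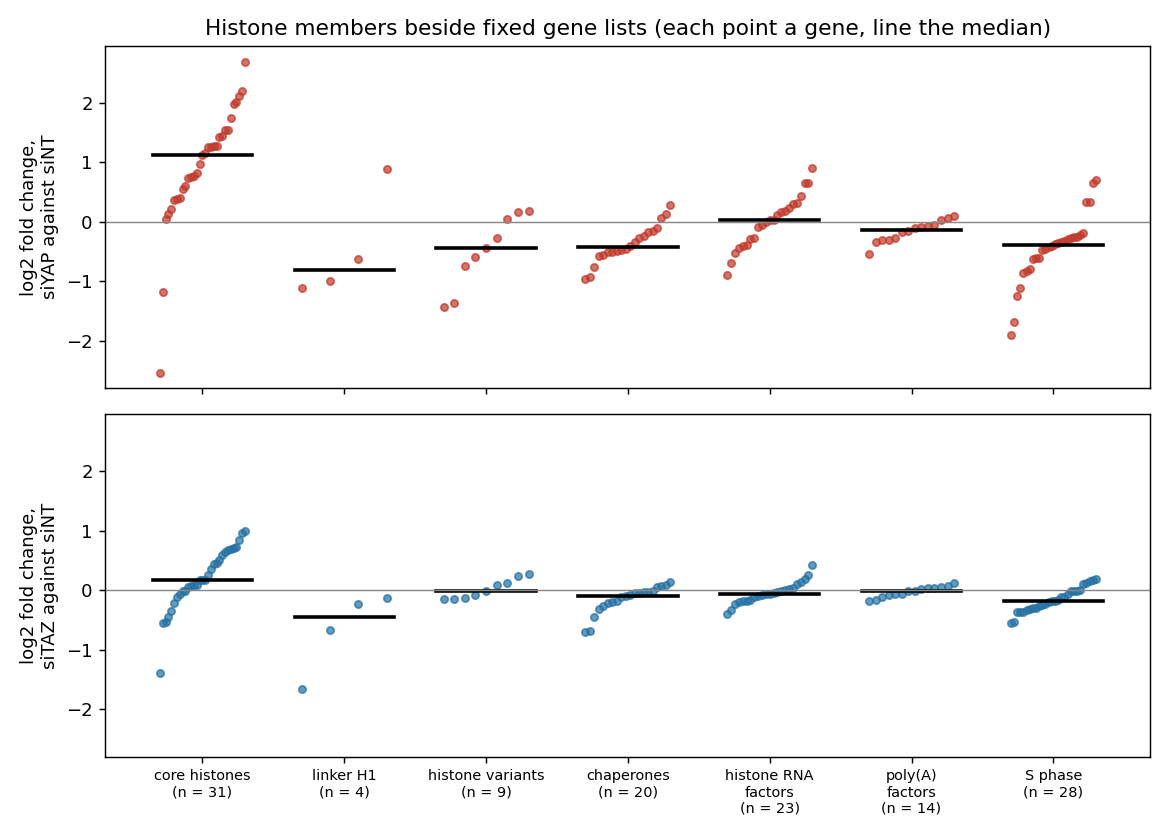
Log2 fold change of each tested gene (points) and the median (line) for the core histones, 4 tested linkers and the fixed gene lists, after siYAP (top) and siTAZ (bottom). The core histones have a median of 1.12 after siYAP, above the lists shown, among which the S-phase genes have a median of -0.39.

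Genes of S phase and DNA replication, which are usually made together with the core histones, went down where the core histones went up. Of 28 tested after siYAP 24 fell and 4 rose, against 33.4% and 33.8% of all genes, with a median log2 fold change of -0.39. RRM1, a subunit of ribonucleotide reductase, was at 199, 192 and 193 CPM in siNT and at 51.2, 54.0 and 49.9 CPM in siYAP (-1.91, SE 0.05). CCNA2, the S-phase cyclin A, was at 183, 191 and 176 CPM in siNT and at 55.0, 59.8 and 56.5 CPM in siYAP (-1.68, SE 0.05). E2F1 rose by 0.65 and CCNE1, cyclin E, by 0.71, both of which act at entry into S phase. E2F2 (log2 fold change 0.34) and TYMS (0.33) were the other genes of the list called higher. Other genes of S-phase entry were called lower: CCNE2, also a cyclin E (-0.42), CDK2 (-0.18), CDC6 (-0.62) and CDT1 (-0.27). After siTAZ 16 of the 28 fell and 3 rose, against 18.2% and 16.4% of all genes, with a median of -0.18. RRM1 fell by 0.55 and RRM2 by 0.37 on the log2 scale, E2F1 rose by 0.18 and PCNA, the replication clamp, by 0.13. CCNA2 was not called after siTAZ (-0.01). The part of these genes, or of cell cycle stage, in the histone levels was not tested.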

How the data were processed

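The deposited files hold raw counts of reads for each Ensembl gene, unnormalized, with 1 file for each library. The submitters' processing notes name STAR 2.5.0c, HTSeq, Trim Galore, Picard, SAMtools and the mouse build mm10, whereas all gene IDs are human; the annotation and strand setting are not given in the sources used here. Every file lists 0 reads as not unique, and reads from identical copies may be missing. Coordinates, transcripts and overlaps are those of GENCODE 29 (GRCh38), and promoters are RefSeq's (GRCh38.p14).

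Counts were fitted in R 4.3.3 with edgeR 4.0.16 (filterByExpr, minimum count 10 and minimum total 15; TMM; robust quasi-likelihood over all 9 libraries), two-sided, with Benjamini-Hochberg adjustment over 15560 genes. The procedure was tested on simulated data. SEs come from the F statistic. Alternatives used limma 3.58.1, DESeq2 1.42.0, other scalings, filters and memberships, and each library left out. Same-numbered libraries did not deviate together (correlations from -0.03 to 0.01), so the reported fit has no block.

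Members with all values given were the 2 highest per kilobase of exon in each class, the 4 largest called rises and falls per comparison, and H1-10; 1 member is not reported here by name. From the lists, key factors and the 2 smallest p per direction were named. Other members were named with their values in view. The members and lists were chosen with earlier results of these data known.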

Additional observations from a re-analysis of the deposited data

How the results depend on the processing

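The counts of members higher after siYAP (21) and lower in siTAZ than in siYAP (21) stayed within 1.5 times under every alternative run, at 16 to 22 and 18 to 21 when single libraries were left out. The small counts depend on which genes are members. With older HIST1H or HIST2H symbols only, 2 members in place of 4 were lower after siYAP, 1 in place of 4 was lower after siTAZ, and 2 in place of 4 were higher in siTAZ than in siYAP. Without the 6 members that share at least 50% of their windows with another gene, an alternative chosen after seeing the data, 18 members were higher and 4 lower after siYAP. With the replicate number as a block, 21 members were higher and 4 lower after siYAP, 4 higher and 4 lower after siTAZ, and 4 higher and 21 lower in siTAZ than in siYAP; the numbers do not pair the libraries.

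Of 58 calls for single members, 48 held in every alternative, and 10 were lost in at least 1, mostly on leaving out a library; no alternative reversed a direction. Those lost that are not given above were H2AC13 after siYAP (adjusted p up to 0.205) and H2BC4, H2BC17 and H2BC18 between siTAZ and siYAP (adjusted p up to 0.0723, 0.109 and 0.133). Depth limits the 9 members not tested, and genes such as H2AC20 and H1-3, which have few counts. Near-identical copies, unstated strand and overlapping exons limit the counts of single members.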

Other observations

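Histone chaperones, which carry new histones to the replication fork or to sites of exchange, also went opposite to the core histone transcripts after siYAP. Of 20 tested, 16 fell and 2 rose, with a median log2 fold change of -0.43, against 33.4% and 33.8% of all genes. HJURP, the chaperone of CENPA, fell by 0.96 on the log2 scale (SE 0.05), beside the fall of CENPA itself by 1.37. NAP1L1, a carrier of H2A and H2B dimers, fell by 0.50, and RBBP4 rose by 0.28 and DAXX, an H3.3 chaperone, by 0.14. After siTAZ 9 fell and 1 rose, against 18.2% and 16.4% of all genes, with a median of -0.09. SSRP1, a subunit of FACT, fell by 0.46 and HAT1, which acetylates new H4, by 0.69, while NASP, a chaperone of H3 and H4, rose by 0.14. HAT1 was not called after siYAP (-0.11, adjusted p = 0.0779) and was lower in siTAZ than in siYAP by a log2 difference of -0.58 (adjusted p = 8.35e-14).

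The neighbours H2BC21 and H2AC20 are read away from each other with 322 bases between them, and after siYAP they had log2 fold changes of 2.01 and -2.54. H2AC20 had 35 counts over the siNT libraries and 6 over the siYAP libraries, and 30.5% of its 50-base windows occur in other counted genes. It was tested because of the groups in which it is high, siNT and siTAZ.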
